A study of Mus musculus with 6 samples.

Results

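Fatty acid uptake and storage were followed through 9 genes, namely Cd36, Lpl, Gpihbp1, Fabp4, Fabp5, Pparg, Angptl4, Plin2 and Cpt1a, in tumor endothelial cells (TECs) of mice with and without forced Notch activation in the endothelium. The genes were taken by name from the deposited expression table, where they are 9 of 23473 rows with RefSeq gene names, out of 56826 rows in all. The comparison was between 3 NICeCA and 3 Ctrl mice. All were male C57BL/6 mice, with an age of 8 weeks in the labels, that carried subcutaneous tumors of Lewis lung carcinoma (LLC), a transplantable mouse lung cancer line. NICeCA mice combined Cdh5-CreERT, a tamoxifen-inducible recombinase driven by an endothelial promoter, with a Notch1 intracellular domain behind a floxed stop cassette at Rosa26, so that tamoxifen switched Notch signaling on in the endothelium without a ligand. Ctrl mice were labelled wild type, and no source used here states whether they received tamoxifen or carried the Cre allele. The Cdh5 promoter acts in endothelium generally, so the transgene was not confined to tumor vessels. The labels say that tumors were taken on different days, whereas the methods name a single day. TECs were caught with CD31 beads, with a stated purity above 90%, and the ribosomal RNA-depleted libraries, 1 per mouse, were read by bulk RNA-seq. The level of a gene was its deposited RPKM, that is, its reads scaled to the length of the gene and to the depth of the library.

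Triglyceride travels in lipoprotein particles that are too large to leave most capillaries. Lipoprotein lipase (LPL), held on the luminal face of the endothelium by GPIHBP1, splits it into fatty acids, and ANGPTL4 inactivates LPL. Fatty acids then enter cells with the help of CD36, are carried in the cytosol by FABP4 and FABP5, and are either stored as triglyceride in droplets coated by PLIN2 or taken into mitochondria through CPT1A for oxidation. PPARG is a nuclear receptor that binds fatty acids and is known to drive several of these genes, and Notch is known to regulate fatty acid transport in the endothelium of heart and muscle.

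Plin2, which coats lipid droplets, and Fabp5, a cytosolic carrier of fatty acids, were the 2 of 9 genes that were higher in NICeCA than in Ctrl libraries at an adjusted p under 0.05 (limma on log2(RPKM + 1), Benjamini-Hochberg over 12320 genes). The mean level of Plin2 was 3.09-fold and that of Fabp5 3.99-fold that of Ctrl. None of the 9 genes was called lower. Across all 12320 genes tested, 5.88% were called higher and 7.68% lower. Cd36, the fatty acid receptor, was higher in every NICeCA library than in any Ctrl library, with a mean 2.03-fold that of Ctrl, but did not pass the test. Cpt1a, the gate to mitochondrial oxidation, lay near equality, at a log2 fold change of -0.05. In all, 7 of the 9 genes had a positive and 2 a negative log2 fold change, beside 5509 and 6811 of all 12320 genes tested. The median of the 9 genes was 1.03, beside -0.05 over all genes tested. The 9 genes were chosen with earlier results of these data known, so this contrast is a description and no test.

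Markers of other cell types were abundant beside those of endothelium, and they were compared first because several of them differed between the groups. The summed RPKM of 15 endothelial markers was 672, 264 and 344 in the Ctrl libraries and 572, 744 and 691 in the NICeCA libraries, so that Ctrl replicate 1 stood with the NICeCA libraries and above the other Ctrl libraries. All 15 of these markers had a positive log2 fold change, with a median of 0.66, and 2 of them, Flt1 and Vwf, were called higher. The summed RPKM of 14 macrophage and monocyte markers was far above that, at 7323 to 10284 in Ctrl and 5772 to 9807 in NICeCA libraries, of which Lyz2 gave the largest share. Of these 14, Cd68, Itgam, Cd14 and Fcgr1 were called higher and none lower, while 8 had a positive and 6 a negative log2 fold change. Neutrophil markers summed to 119 to 278 in Ctrl and 643 to 1747 in NICeCA libraries, with 8 of 9 tested markers called higher, and platelet markers, mostly Pf4, summed to 119 to 209 against 1192 to 1324. Pericyte and fibroblast markers summed to 356 to 586 in Ctrl and 216 to 434 in NICeCA libraries, with 2 of 11 tested markers called higher (Tagln and Rgs5) and 3 lower (Lum, Pdgfra and Col3a1). What share of the bead fraction was endothelial is therefore not known from these data, whatever the stated purity. Adipocyte markers other than Lipe summed to at most 3.05 RPKM in any library, and 9 of 10 fell under the 1 RPKM filter. Hey1, a direct Notch target, was called higher in NICeCA libraries (log2 fold change 1.10, limma adjusted p = 0.041). Hey1 was named after its value was seen, so it does not serve as a test of Notch activation. In such bulk samples, fewer cells of a type and less RNA per cell cannot be told apart.

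**Figure D1:**
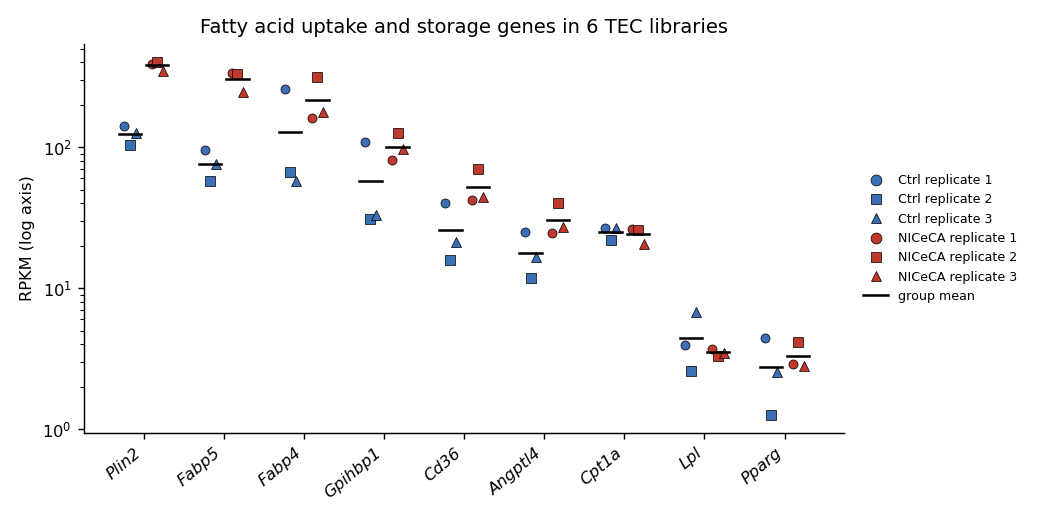
Level of each gene in each library, in RPKM on a log axis, with Ctrl in blue, NICeCA in red, a symbol for each replicate number and a line at the group mean. The groups are apart for Plin2, Fabp5 and, narrowly, Cd36, whereas for Fabp4, Gpihbp1 and Angptl4 the Ctrl replicate 1 circle lies among the NICeCA points.

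Plin2 stood for storage, since its protein sits on the surface of the lipid droplet and shields the triglyceride from lipases. Its level was 140.4, 103 and 126 RPKM in Ctrl and 389.9, 405 and 347 RPKM in NICeCA libraries. Every NICeCA library was thus well above every Ctrl library, with replicates of each group close together. The means were 123 ± 18.9 and 380.5 ± 30.0 RPKM (SD, n = 3 each). The log2 fold change was 1.63 with an SE of 0.15 and a 95% interval of 1.27 to 1.98 (limma adjusted p = 0.0083). It remained past the threshold in all 16 alternative analyses, where the log2 fold change ranged from 1.24 to 1.73. Plin2 lay on the minus strand at chr4:86656565-86670059 (GRCm38), and its reads, 7738 to 26955 per library, were the most of the 9 genes. The annotated pseudogene Gm12551 matched 259 bases of the Plin2 transcript at 96.1% identity, so reads in that stretch could have been shared.

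The 300-base RefSeq promoter window of Plin2 (GRCm38.p6, chr4:86670010-86670309, minus strand) is shown with that of Cd36 (chr5:17835847-17836146, minus strand), because in both genes all NICeCA libraries exceeded all Ctrl libraries. Each window runs from 250 bases before to 50 bases after a transcription start, and 4 of the 9 genes had such windows, 6 in all. Capitals mark matches on either strand to TGGGAA, the core letters bound by the Notch partner RBPJ, to the E-box CACGTG, and to AGGTCA, a site bound by nuclear receptors such as PPARG. A match on the opposite strand appears as its complement, TTCCCA or TGACCT.
Plin2: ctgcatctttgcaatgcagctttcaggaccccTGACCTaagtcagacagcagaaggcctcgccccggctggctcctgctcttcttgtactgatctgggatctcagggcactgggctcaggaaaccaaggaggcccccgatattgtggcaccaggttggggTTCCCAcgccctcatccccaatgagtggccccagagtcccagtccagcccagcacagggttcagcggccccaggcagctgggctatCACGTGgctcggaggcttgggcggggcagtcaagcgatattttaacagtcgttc
Cd36: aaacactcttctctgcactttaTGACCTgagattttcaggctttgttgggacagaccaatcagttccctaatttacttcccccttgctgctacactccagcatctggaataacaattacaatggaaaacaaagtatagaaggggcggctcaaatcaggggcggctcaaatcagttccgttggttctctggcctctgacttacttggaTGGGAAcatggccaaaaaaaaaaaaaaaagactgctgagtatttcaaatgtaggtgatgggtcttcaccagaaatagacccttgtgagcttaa
In the Plin2 window, TGGGAA lay on the opposite strand with its first base at -90 from the start, CACGTG at -4 and AGGTCA on the opposite strand at -218. In the Cd36 window, TGGGAA lay at -43 and AGGTCA on the opposite strand at -228, and the start used there falls inside the span of the Cd36 row. TGGGAA was present in 3 of the 6 windows and in 25.6% of all 32851 RefSeq windows, and AGGTCA in 5 of the 6 and in 16.3% of all. CACGTG was in 1 of the 6 and in 7.15% of all, with ACGTG, the core bound by hypoxia-inducible factors and contained in CACGTG, in 1 of the 6 and in 19.6% of all. The spaced repeat AGGTCANAGGTCA was in none of the 6 and in 0.0396% of all, and GTAAACA, a forkhead motif, in none of the 6 and in 3.65%. Several of the 6 windows were those of Pparg at different starts, so the windows are not independent. Such matches describe letters only.

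Fabp5, the carrier found in epidermis, macrophages and endothelium, had 95.3, 57.4 and 76.6 RPKM in Ctrl and 339, 330.5 and 246 RPKM in NICeCA libraries. The lowest NICeCA library was more than 2-fold above the highest Ctrl library. The means were 76.5 ± 18.9 and 305 ± 51.2 RPKM (SD, n = 3 each), and the log2 fold change was 2.00 with an SE of 0.21 and an interval of 1.51 to 2.49 (limma adjusted p = 0.0092). Fabp5 kept its call in 15 of 16 alternatives, and without NICeCA replicate 2 it stood at 1.93 with a limma adjusted p of 0.0504. Fabp5 lay at chr3:10012585-10016610 on the plus strand. The processed pseudogenes Gm6166 and Gm14328 matched 409 and 408 bases of its transcript at 98.3% and 97.3% identity, and neither had a row of its own, so how their reads were assigned is not known.

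Fabp4, the carrier of adipocytes, macrophages and capillary endothelium, spread far more within the Ctrl group. It had 261, 66.3 and 58.0 RPKM in Ctrl and 162, 314 and 178 RPKM in NICeCA libraries. Ctrl replicate 1 exceeded 2 of the 3 NICeCA libraries, and the groups overlapped. The log2 fold change of 1.05 had an SE of 0.54 and an interval of -0.21 to 2.31 (limma adjusted p = 0.20). Thus of these neighbouring carrier genes on chromosome 3 (Fabp4 at chr3:10204343-10208576, minus strand), Fabp5 passed the test and Fabp4 did not, but whether their fold changes differ was not tested.

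Cd36, the scavenger receptor through which endothelium takes up long-chain fatty acids, had 39.9, 15.9 and 21.2 RPKM in Ctrl and 42.3, 69.7 and 44.4 RPKM in NICeCA libraries. The groups did not overlap, although the highest Ctrl library lay just under the lowest NICeCA library, and 16.5% of all genes tested had every NICeCA library above every Ctrl library, beside 3 of the 9 genes here. The means were 25.7 ± 12.6 and 52.1 ± 15.2 RPKM (SD, n = 3 each), with a log2 fold change of 1.06, an SE of 0.33 and an interval of 0.30 to 1.82 (limma adjusted p = 0.066). The two-sided exact permutation test over the 20 assignments of the libraries gave p = 0.1, the smallest that 3 against 3 allows. Plin2 and Fabp5 had the same exact p, since any gene whose groups do not overlap gets this value. Cd36 spans chr5:17781690-17888959 on the minus strand.

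The genes that act on lipoproteins at the vessel wall moved less clearly. Gpihbp1, the anchor of LPL and a gene made by capillary endothelium, had 109.6, 30.8 and 32.9 RPKM in Ctrl and 81.5, 125 and 96.5 RPKM in NICeCA libraries. All 3 NICeCA libraries were above Ctrl replicates 2 and 3, but Ctrl replicate 1 lay above 2 of them. Its log2 fold change was 1.03, with an interval of -0.01 to 2.07 (limma adjusted p = 0.14). Angptl4, the secreted inhibitor of LPL and a gene known to respond to hypoxia and fatty acids, had 24.8, 11.8 and 16.6 RPKM in Ctrl and 24.6, 40.2 and 27.2 RPKM in NICeCA libraries. The groups met at 24.8 and 24.6 RPKM, and the log2 fold change was 0.78 with an interval of 0.15 to 1.42 (limma adjusted p = 0.089). Lpl, the lipase itself, was low in every library, at 3.96, 2.57 and 6.81 RPKM in Ctrl and 3.72, 3.30 and 3.48 RPKM in NICeCA libraries. Its NICeCA values lay within the Ctrl range, with a log2 fold change of -0.20 and an interval of -0.80 to 0.39 (limma adjusted p = 0.60). An opposite-strand transcript model within Lpl, fantom3_F830013L13, had 2.20, 0.93 and 3.61 RPKM in Ctrl and 2.13, 1.35 and 2.20 RPKM in NICeCA libraries. Since the strand setting of the counting is not given, whether reads were shared with Lpl is not known. Gpihbp1 lay at chr15:75596658-75598213 and Lpl at chr8:68880555-68906932, both on the plus strand, and Angptl4 at chr17:33774900-33781575 on the minus strand.

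Although its range overlapped that of Lpl, Pparg, the nuclear receptor of this pathway, had the lowest mean of the 9 genes in both groups. Its level was 4.43, 1.25 and 2.56 RPKM in Ctrl and 2.91, 4.13 and 2.82 RPKM in NICeCA libraries, with as few as 99 reads in Ctrl replicate 2. The groups overlapped fully, and the log2 fold change was 0.27 with an interval of -0.42 to 0.96 (limma adjusted p = 0.54). An antisense gene, Gm44079, lies within Pparg (chr6:115361221-115490401, plus strand), and its reads could not be separated because the strand setting of the counting is not given. Cpt1a, which loads fatty acids for mitochondrial entry, was the steadiest gene, at 26.7, 22.0 and 26.9 RPKM in Ctrl and 26.4, 25.8 and 20.7 RPKM in NICeCA libraries. Its log2 fold change of -0.05 had an interval of -0.39 to 0.28 (limma adjusted p = 0.82), which does not reach the lower interval bounds of Plin2 or Fabp5. Cpt1a spans chr19:3323301-3385733 on the plus strand.

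**Figure D2:**
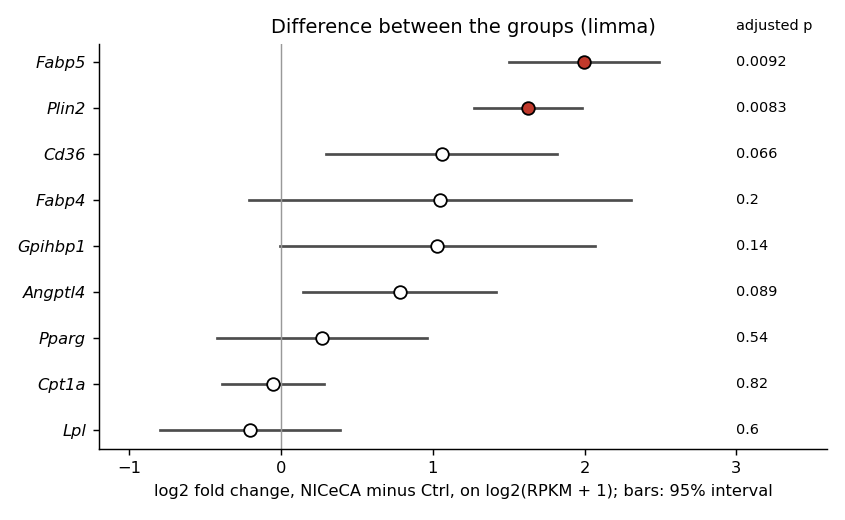
Log2 fold change of each gene, NICeCA minus Ctrl on the log2(RPKM + 1) scale, with its 95% interval as a bar and the limma adjusted p at the right, filled points marking an adjusted p under 0.05. The intervals of Fabp5 and Plin2 start above 1, those of Cd36 and Angptl4 start above 0, and the other 5 include 0.

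Since RPKM is a per-length quantity, levels can be ordered between genes within a group. In Ctrl libraries the order of mean RPKM ran from Fabp4 through Plin2, Fabp5, Gpihbp1, Cd36, Cpt1a, Angptl4 and Lpl to Pparg, and neighbours were apart in range at Plin2 over Fabp5 and at Angptl4 over Lpl. In NICeCA libraries Plin2 and Fabp5 came first, followed by Fabp4, Gpihbp1, Cd36, Angptl4, Cpt1a, Lpl and Pparg. There the ranges of neighbours overlapped at Fabp5 and Fabp4, at Angptl4 and Cpt1a, and at Lpl and Pparg. Plin2 thus stood above Fabp4 in all 3 NICeCA libraries and in 2 of 3 Ctrl libraries.

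For several genes, Ctrl replicate 1 stood apart from the other Ctrl libraries. On the log2 scale its level exceeded the mean of the other Ctrl libraries by 2.06 for Fabp4, 1.75 for Gpihbp1, 1.08 for Cd36, 0.94 for Pparg and 0.78 for Angptl4, but by 0.52 for Fabp5, 0.30 for Plin2 and 0.13 for Cpt1a. For Lpl it differed by -0.09, and the Ctrl range of that gene was set by replicates 2 and 3. The endothelial markers of this library were also high, as given above. Without Ctrl replicate 1, 6 of the 9 genes were called higher, beside 499 of all 12320 genes tested in that fit. Besides Plin2 and Fabp5, these were Fabp4 (log2 fold change 1.73), Gpihbp1 (1.61), Cd36 (1.42) and Angptl4 (1.04), with limma adjusted p from 0.024 to 0.049 for these 4. Each of these 4 genes was called in that alternative alone. Leaving out NICeCA replicate 2 left 1 of the 9 called, Plin2, beside 26 higher and 1 lower over all 12320 genes tested.

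**Figure D3:**
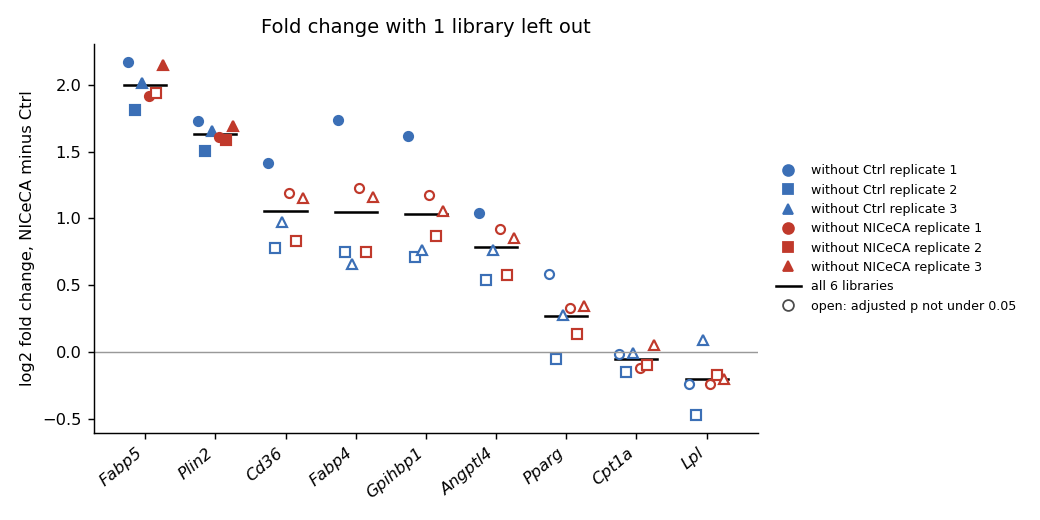
Log2 fold change of each gene, NICeCA minus Ctrl, when the named library is left out, with filled symbols for a limma adjusted p under 0.05, open symbols otherwise and a line for all 6 libraries. Plin2 is filled in every case and Fabp5 in every case but 1, whereas Cd36, Fabp4, Gpihbp1 and Angptl4 are filled only without Ctrl replicate 1, the highest point of each.

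Set against the endothelial markers of the same library, the genes fell into other ranges. As a percent of the summed RPKM of the 15 markers, Fabp5 was 14.2 to 22.2 in Ctrl and 35.7 to 59.3 in NICeCA libraries, and Plin2 was 20.9 to 39.0 and 50.2 to 68.2. Both remained apart between the groups on this scale. Cd36 was nearly constant in Ctrl libraries, at 5.93 to 6.15%, and higher in NICeCA libraries, at 6.42 to 9.36%. Fabp4 (16.8 to 38.8% and 25.7 to 42.2%), Gpihbp1 (9.56 to 16.3% and 14.0 to 16.8%) and Angptl4 (3.69 to 4.83% and 3.94 to 5.40%) overlapped between the groups. Lpl, Pparg and Cpt1a also overlapped, with lower means in NICeCA libraries, at 0.53, 0.49 and 3.69% beside 1.18, 0.63 and 6.70% in Ctrl libraries. The parts of macrophages, neutrophils and platelets in the levels of Plin2, Fabp5 or Cd36 were not tested.

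**Figure D4:**
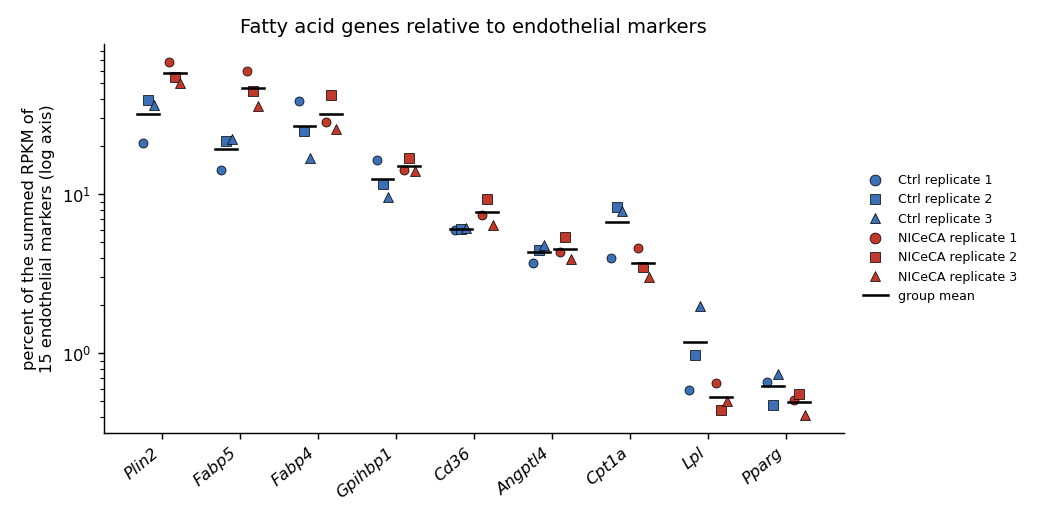
Each gene as a percent of the summed RPKM of 15 endothelial markers in the same library, on a log axis, with Ctrl in blue, NICeCA in red and a line at the group mean. Plin2, Fabp5 and Cd36 are apart between the groups, and Cd36 has the narrowest Ctrl range, 5.93 to 6.15%.

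Over the 6 libraries, the tested gene whose log2(RPKM + 1) followed Plin2 most closely was Ralb (Pearson r = 0.997, of 12311 genes searched), and Ralb was also the closest to Fabp5 (r = 0.997). As many as 752 genes had r over 0.9 with Plin2 and 759 with Fabp5. Csrp2 was closest to Cd36 (r = 0.993) and to Angptl4 (r = 0.995). Gpihbp1 followed Tie1, an endothelial receptor kinase and 1 of the 15 endothelial markers, with r = 0.998, Tie1 being 37.5, 13.4 and 14.9 RPKM in Ctrl and 28.6, 38.8 and 34.3 RPKM in NICeCA libraries. The closest genes were Vamp5 for Fabp4 (r = 0.989), Mansc1 for Pparg (r = 0.996), Alpk1 for Lpl (r = 0.990) and Zbtb8a for Cpt1a (r = 0.998). These values describe 6 libraries that share their groups and carry no test.

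Other genes of triglyceride storage and lipid droplets moved beside Plin2. Of 23 tested genes on that list, 5 were called higher (Hilpda, G0s2, Dgat2, Agpat9 and Abhd5) and 2 lower (Agpat3 and Fitm2), with a median log2 fold change of 0.12. Over all 12320 genes tested, 5.88% were called higher and 7.68% lower, with a median of -0.05. This list too was chosen with earlier results of these data known, so the contrast is no test. Hilpda, a hypoxia-inducible droplet protein that inhibits the lipase ATGL, had 33.7, 42.8 and 86.0 RPKM in Ctrl and 393, 435 and 415 RPKM in NICeCA libraries, as high there as Plin2. Its log2 fold change was 3.02 with an SE of 0.31 (limma adjusted p = 0.0088), called in all 16 alternatives. G0s2, another inhibitor of ATGL, had 19.6, 17.8 and 29.5 RPKM in Ctrl and 53.5, 60.5 and 87.2 RPKM in NICeCA libraries (log2 fold change 1.55, limma adjusted p = 0.017). Dgat2, which makes triglyceride in its final step, had 2.00, 1.55 and 3.05 RPKM in Ctrl and 5.08, 5.30 and 7.04 RPKM in NICeCA libraries (1.10, limma adjusted p = 0.022). The groups were apart for all 7 called genes. Called or not, 2038 of the 12320 genes tested had NICeCA wholly above Ctrl and 3001 wholly below. However, 1 gene of the list was called higher without NICeCA replicate 2 and 2 without NICeCA replicate 1. Of all 12320 genes tested, those fits called 26 and 91 higher. Without either Ctrl replicate 2 or NICeCA replicate 3, 3 were called higher, beside 242 and 511 over all genes tested. The 2 lower calls fell to 0 without any one of Ctrl replicate 1, Ctrl replicate 2, NICeCA replicate 1 and NICeCA replicate 2. Over all genes tested, those fits called 536, 137, 14 and 1 lower. Agpat3, an acyltransferase, fell by 0.53 on the log2 scale (limma adjusted p = 0.033), a call kept in 8 of 16 alternatives. Pnpla2, which encodes ATGL, was not called, at a log2 fold change of 0.11 (limma adjusted p = 0.71). The parts of macrophages, neutrophils and platelets in the levels of these storage genes were not tested either.

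**Figure D5:**
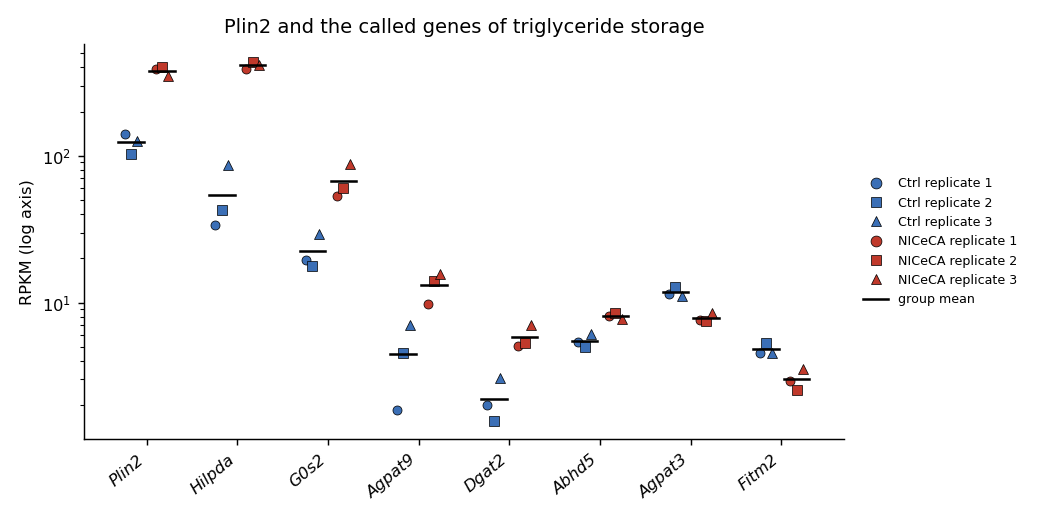
Plin2 and the 7 called genes of the triglyceride storage list in each library, in RPKM on a log axis, with Ctrl in blue, NICeCA in red and a line at the group mean. Hilpda and Plin2 reach the same range in NICeCA libraries, 347 to 435 RPKM, from unlike Ctrl levels.

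For the remaining steps, the calls are to be read beside the 5.88% called higher and 7.68% called lower over all genes tested. The lists of these steps were also chosen with earlier results of these data known. On the list of fatty acid entry and activation, 0 of 15 tested genes were called higher and 1 lower, the transporter Slc27a3 (log2 fold change -0.69, limma adjusted p = 0.032), with a list median of 0.05. Its relative Slc27a4 was at 0.45 (limma adjusted p = 0.062). Among 8 tested genes of lipolysis at the vessel wall, Lsr, a lipoprotein receptor, was called higher (0.57, limma adjusted p = 0.044) and Pltp, the phospholipid transfer protein, lower, with a list median of -0.06. Pltp had 247, 170 and 181 RPKM in Ctrl and 98.2, 80.5 and 54.1 RPKM in NICeCA libraries, and fell by 1.37 on the log2 scale (limma adjusted p = 0.021). Of 27 tested genes of fatty acid oxidation other than Cpt1a, 1 was called higher, Slc25a20, the carnitine carrier of the mitochondrial membrane (0.47, limma adjusted p = 0.049), and 1 lower, Cpt1c, at 3.65, 6.26 and 2.98 RPKM in Ctrl and 1.36, 1.38 and 2.00 RPKM in NICeCA libraries (limma adjusted p = 0.037), with a list median of 0.05. Lsr was called in 9 of 16 alternatives and Slc25a20 in 3. Without NICeCA replicate 2 no gene of these 3 lists was called in either direction, beside 26 higher and 1 lower over all genes tested.

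The lists of PPARG partners and of fatty acid synthesis both had negative medians and no gene called higher. Among all genes tested, 5.88% were called higher and 7.68% lower, with a median of -0.05. Of 16 tested PPAR and partner regulators, 0 were called higher and 4 lower, among them the corepressor Ncor1 (log2 fold change -0.58, limma adjusted p = 0.041) and the coactivators Ppargc1b (-0.66, limma adjusted p = 0.031) and Ncoa2 (-0.46, limma adjusted p = 0.047). Both kinds of cofactor were thus among the called genes, and the list median was -0.35. Of 12 tested genes of fatty acid synthesis, 0 were called higher and 2 lower, Fasn, the fatty acid synthase (-1.19, limma adjusted p = 0.035), and Acaca, which makes its malonyl substrate (-0.75, limma adjusted p = 0.036), with a list median of -0.36. Plin2 and Hilpda were called in all alternatives, whereas Ncor1 was called in 8 of 16 alternatives, Ncoa2 in 3 and Fasn in 8. With the trend of gene length removed, 2 PPAR regulators and 0 synthesis genes were called lower. Leaving out Ctrl replicate 2 gave 1 and 0, leaving out Ctrl replicate 3 gave 2 and 0, and leaving out NICeCA replicate 1 or NICeCA replicate 2 gave 0 in both lists. Of all 12320 genes tested, 206 were called lower with the length trend removed. Without Ctrl replicate 2, Ctrl replicate 3, NICeCA replicate 1 and NICeCA replicate 2 in turn, 137, 748, 14 and 1 were called lower.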

How the data were processed

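Bulk RNA-seq of 6 TEC libraries was used, 3 Ctrl and 3 NICeCA, grouped by sample title. The values the authors deposited are RPKM, from reads aligned with TopHat2, per the submitters' processing notes, which name mm9, but 99.3% of 21665 RefSeq rows matched by symbol overlapped their gene in GRCm38.p6, including all 9 genes. No source used here gives the counting tool or its strand setting. RPKM times length gave whole reads (within 0.05) for 100% of values below 1000 reads, so depth is known, at 27793301 to 30769916 reads on RefSeq rows. The names of 27 rows had become dates and were kept.

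Log2(RPKM + 1) of RefSeq rows with a mean of at least 1 RPKM was compared by limma 3.58.1 under R 4.3.3 (empirical Bayes with a mean-variance trend, two-sided, Benjamini-Hochberg, adjusted p under 0.05), without a replicate block. The replicates are separate mice. The authors' test for these data is not stated. The members and lists were chosen with earlier results of these data known, and the lists were written from general knowledge. All 9 members are described, from each pathway list up to 4 called genes by smallest p (the 2 smallest where fewer than 2 were called), and for each member the gene of highest Pearson r. Agpat9, Abhd5, Fitm2, Pnpla2 and Hey1 were named after their values were seen. A gene that the rule names is not reported here. Transcripts of GENCODE M21 were searched with blastn 2.17.0 for copies of at least 150 bases and 95% identity. The procedure was checked on simulated data. Alternatives were the replicate block, leaving out each library, trimmed mean scaling, quantile normalization, a filter at 5 RPKM or none, 0.1 as pseudocount, no trend, limma voom on the recovered reads, and all rows with FANTOM3 transcript models. Removal of the trend with gene length (lowess, span 0.3) was added after seeing the data. Promoter windows come from RefSeq (GRCm38.p6), and 5 of the 9 members had no entry.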

Additional observations from a re-analysis of the deposited data

Results flagged for a closer look

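The main comparison used RefSeq rows alone, and FANTOM3 rows entered 1 alternative only. Among FANTOM3 transcript models inside the member genes, fantom3_D730031K04 in Cd36 (chr5:17846306-17849789, same strand) was picked because every NICeCA library exceeded every Ctrl library. It stood at 0.92, 0.19 and 0.80 RPKM in Ctrl and at 1.16, 2.13 and 1.06 RPKM in NICeCA libraries. Its separation was the ground of the choice and so carries no weight of its own. Inside Cpt1a, fantom3_E330028O17 was apart the other way, at 0.44, 1.02 and 0.66 RPKM in Ctrl and 0.18, 0.30 and 0.30 RPKM in NICeCA libraries. Whether the reads of either model come from a separate transcript was not tested.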

How the results depend on the processing

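Plin2 kept its direction and its call in all 16 alternatives and Fabp5 in 15. The count of the 9 genes called higher was 2 in 14 of the 16 alternatives. Leaving out 1 library gave 1 to 6, the low value without NICeCA replicate 2 and the high value without Ctrl replicate 1, and none of the 9 was called lower in any alternative. Over all genes, the count called higher (725) ranged from 26 to 913 and that called lower (946) from 1 to 832 when 1 library was left out. With the replicate block the counts were 327 higher and 209 lower. Same-numbered libraries did not deviate together (r = 0.12, -0.34 and -0.18), so the numbers were not taken as pairs. The methods speak of pairs of mice, but no source used here says which mice formed them. Among all matchings of a Ctrl with a NICeCA library, r was highest for Ctrl replicate 2 with NICeCA replicate 3, at 0.44. No other pairing was fitted. Plin2, Fabp5, Hilpda, G0s2, Dgat2 and Pltp kept their calls with the replicate block, whereas Fasn (limma adjusted p = 0.051), Acaca (0.056), Ncor1 (0.062), Ncoa2 (0.097), Ppargc1b (0.071), Slc27a3 (0.065), Lsr (0.077), Cpt1c (0.061), Slc25a20 (0.11) and Agpat3 (0.080) lost theirs. Other counts were 446 and 325 with quantile normalization, 260 and 105 with no filter, 579 lower at a mean of at least 5 RPKM, 2185 lower with all FANTOM3 rows and 206 lower with the length trend removed. The higher genes were 43.4% of all calls in the main comparison, 58.3% with trimmed mean scaling, 57.8% with quantile normalization, 33.8% with voom and 74.1% with the length trend removed. Small differences changed sign, with no call on either side. Over the 6 fits that each omit a library, Lpl ranged in log2 fold change from -0.469 to 0.095 (positive without Ctrl replicate 3), that of Pparg from -0.0497 to 0.585 (negative without Ctrl replicate 2) and that of Cpt1a from -0.143 to 0.054 (positive without NICeCA replicate 3). Cpt1a was also positive with trimmed mean scaling, at 0.0173, and with the length trend removed, at 0.0856. Lpl and Pparg were not tested at a mean of at least 5 RPKM. The causes were not tested. With 3 libraries a group, p-values rest on the spread between these mice.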
